A study of Mus musculus with 12 samples.

Results

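The PPAR, RXR and C/EBP genes form the core of the transcription factor network that turns a fibroblast into a fat cell. This account follows 8 of them, taken by name from the 37991 genes in the files: the peroxisome proliferator-activated receptors Pparg, Ppara and Ppard, their binding partner Rxra, and the CCAAT/enhancer binding proteins Cebpa, Cebpb, Cebpd and Cebpg. All 8 were among the 16163 genes with enough reads to be tested. Their poly(A) RNA was measured in mouse embryonic fibroblasts that had been taken through adipogenesis for 6 days, in 12 libraries, 3 for each of 4 genotypes. The fibroblasts came from male E15.5 embryos on a C57BL/6N background and had been through 4 passages. By their labels, embryos were either wild type (WT), deficient in Gadd45a (Gadd45a-KO), deficient in Ing1 (Ing1-KO), or deficient in both (DKO, Gadd45a-/-;Ing1-/-), from interbred lines of Gadd45a and Ing1 deficient mice. All cultures, WT included, received IBMX at 0.5 mM, dexamethasone at 1 µM, rosiglitazone at 2 µM and insulin at 10 µg/ml for 48 h after they had become confluent, and stayed on insulin from then on. IBMX raises cAMP, dexamethasone activates the glucocorticoid receptor, and rosiglitazone is a ligand of the PPARG protein. The receptor was therefore supplied with a ligand in every genotype. A culture induced in this way holds fat cells beside cells that did not differentiate, so that fewer fat cells and less RNA per fat cell cannot be told apart in these libraries.

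In the known sequence of adipogenesis, Cebpb and Cebpd are switched on early by the hormonal cocktail and bind the genes of Pparg and Cebpa. PPARG and CEBPA then keep each other expressed and switch on the genes of lipid storage. PPAR proteins bind DNA as pairs with an RXR protein, and C/EBP proteins as pairs with each other or with related basic leucine zipper factors. CEBPG lacks the activation domains of its relatives and mostly acts as their partner. PPARA drives fatty acid oxidation in liver and brown fat, while PPARD is expressed in nearly every tissue.

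The sequence before the start of the genes is shown for Pparg and Cebpb, because Pparg had the largest change of the 8 genes and Cebpb a fall from WT to the DKO-labelled libraries that was called in every fit run. The sequences are RefSeq windows of the 250 bases before an annotated start in GRCm38.p6. Of the 8 genes, 7 have such windows, 10 in all. Pparg has 3 of them, since the gene has several starts, and reads counted per gene do not tell the transcripts from these starts apart. Window 1, chr6:115360894-115361143, and window 3, chr6:115421816-115422065, both on the plus strand, differ widely in composition. Capitals in window 3 mark matches to the C/EBP motif TTNNGCAA on either strand. The Cebpb window is chr2:167688665-167688914 on the plus strand, and its capitals mark matches to TGACG, the core of the cAMP response element, on either strand.
Pparg, window 1: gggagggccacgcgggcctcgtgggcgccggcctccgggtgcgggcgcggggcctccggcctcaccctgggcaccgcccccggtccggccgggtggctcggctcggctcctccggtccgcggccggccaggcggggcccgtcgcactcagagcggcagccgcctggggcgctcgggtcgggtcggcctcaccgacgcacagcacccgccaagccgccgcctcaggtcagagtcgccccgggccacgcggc
Pparg, window 3: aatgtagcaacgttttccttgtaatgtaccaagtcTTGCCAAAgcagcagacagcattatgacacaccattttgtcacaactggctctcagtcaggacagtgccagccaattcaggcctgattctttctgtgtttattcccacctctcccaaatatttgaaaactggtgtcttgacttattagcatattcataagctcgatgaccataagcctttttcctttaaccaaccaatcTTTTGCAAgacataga
Cebpb: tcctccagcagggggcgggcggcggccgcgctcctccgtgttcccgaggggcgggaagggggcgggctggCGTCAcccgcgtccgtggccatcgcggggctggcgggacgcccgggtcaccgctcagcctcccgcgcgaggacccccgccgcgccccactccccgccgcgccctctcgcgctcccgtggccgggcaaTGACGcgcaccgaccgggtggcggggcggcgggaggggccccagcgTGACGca

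Window 1 of Pparg was 82.4% G and C and held 38 CpG pairs, and window 3 was 40.8% G and C with 2 CpG pairs. The median of all 32851 mouse windows was 52.4% with 6 CpG pairs. The 2 C/EBP matches of window 3 lay 215 to 208 and 16 to 9 bases before the start, and they share no base with each other. No other window of the 10 held TTNNGCAA, which is found in 9.56% of all windows. The Cebpb window was 81.6% G and C with 41 CpG pairs, and it held TGACG 3 times, at 180 to 176, 53 to 49 and 7 to 3 bases before the start. Of all windows 17.8% hold this motif at least once. The full direct repeat bound by PPAR and RXR, searched as AGGTCANAGGTCA on both strands, was in none of the 10 windows and in 0.0335% of all. The Cebpa window held a TATAAA 30 to 25 bases before its start, a motif found in 12.4% of all windows. Window 2 of Pparg held it on the other strand, 29 to 24 bases before the start. These matches describe letters only, and no binding was measured here.

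The libraries held between 42891627 and 52860419 gene reads each. The targeted genes check the labels: Ing1 followed its label, at 0.915 to 1.22 CPM (gene counts scaled by library size) as group means where it was deleted and 45.4 to 46.0 CPM elsewhere. Gadd45a went against its label, with 143 ± 1.75 CPM (SD, n = 3) in the Gadd45a-KO-labelled libraries and 140.05 ± 1.90 CPM in the DKO-labelled ones, against 15.8 ± 1.82 CPM in WT, and gene totals do not tell which exons the reads came from. Each direction given here for a library labelled Gadd45a-KO or DKO rests on its label. The labels do not say whether the 3 libraries of a genotype came from separate embryos. The p-values therefore speak only of the spread among libraries within genotypes. In the fits, that spread was pooled over all the genotypes fitted together. A wide spread in any genotype, such as that of Pparg in Ing1-KO below, thus enters the tests between the others. Of 16 adipocyte markers all were read in every genotype, with a summed level from 1927 to 3854 CPM in WT, 1312 to 1742 CPM in the Gadd45a-KO-labelled libraries, 422 to 3480 CPM in Ing1-KO and 425 to 498 CPM in the DKO-labelled ones. Of 14 fibroblast markers none was at 0, and their summed level ran from 40772 to 52037 CPM over WT and the DKO-labelled libraries.

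Pparg (ENSMUSG00000000440), the receptor without which fat cells do not form, fell in the DKO-labelled libraries. It was at 20.6, 11.0 and 19.6 CPM in WT replicates 1, 2 and 3, and at 10.2, 9.002 and 8.07 CPM in the Gadd45a-KO-labelled libraries. Ing1-KO spread from 18.7 CPM in replicate 1 over 7.79 CPM in replicate 2 to 2.27 CPM in replicate 3, while the DKO-labelled libraries held 1.74, 1.94 and 2.48 CPM. All 3 DKO-labelled libraries were thus below every WT library and every library labelled Gadd45a-KO, whereas Ing1-KO reached from the level of WT to the level of DKO. The group means were 17.1 ± 5.30 CPM in WT, 9.09 ± 1.07 CPM in the Gadd45a-KO-labelled libraries, 9.58 ± 8.36 CPM in Ing1-KO, and with DKO as the label 2.05 ± 0.381 CPM (SD, n = 3). By edgeR the DKO-labelled libraries were 8.28-fold below WT, a log2 fold change of -3.05 ± 0.624 (SE) with an adjusted p of 0.0161, where the adjustment covers all tested genes and a gene is called under 0.05. Against Ing1-KO the difference was -2.22 ± 0.622 (edgeR adjusted p = 0.0468), although Ing1-KO replicate 3 lay inside the range of DKO. Pparg was not called against WT in either of the other genotypes: the Gadd45a-KO-labelled libraries stood at -0.91 ± 0.548 and Ing1-KO at -0.83 ± 0.547 (edgeR adjusted p = 0.897 and 0.435). The DKO-labelled libraries against the Gadd45a-KO-labelled ones gave -2.14 ± 0.622, which did not pass (edgeR adjusted p = 0.104), and the interaction of the genotypes, -1.31 ± 0.824, did not pass either (edgeR adjusted p = 0.511).

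The call of Pparg between the DKO-labelled libraries and WT was lost without WT replicate 1, DKO replicate 1 or DKO replicate 2 (edgeR adjusted p = 0.0639, 0.0726 and 0.0577), with log2 fold changes that stayed between -3.29 and -2.89 over all 12 fits that left out a library. The call against Ing1-KO held in 1 of those fits, the one without Ing1-KO replicate 3 (edgeR adjusted p = 0.00422), and the difference shrank to -1.28 without Ing1-KO replicate 1 (edgeR adjusted p = 0.154). It was also lost without a filter on low counts, with the replicate number as a block and with only the 6 libraries compared (edgeR adjusted p = 0.108, 0.0733 and 0.122). Against the Gadd45a-KO-labelled libraries Pparg passed by DESeq2 (adjusted p = 0.0114), by edgeR on only those 6 libraries (adjusted p = 0.0013), and in edgeR fits without Ing1-KO replicate 1 or Ing1-KO replicate 3 (adjusted p = 0.0421 and 0.0256).

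Ppara (ENSMUSG00000022383), the receptor of fatty acid oxidation, was scarce throughout and lowest in the DKO-labelled libraries. WT held 1.85, 1.17 and 2.33 CPM, the Gadd45a-KO-labelled libraries 1.68, 0.912 and 1.08 CPM, Ing1-KO 3.39, 1.19 and 0.577 CPM, and the DKO-labelled ones 0.352, 0.331 and 0.536 CPM. The last are 15, 15 and 26 reads, against 54 to 117 reads in WT. The DKO libraries did not overlap with any other genotype, but the gap was narrow, with 26 reads in DKO replicate 3 and 30 in Ing1-KO replicate 3. How many of all tested genes are separated in this way was not counted. The highest library of all was Ing1-KO replicate 1, which was also the Ing1-KO library with the most Pparg. Against WT the log2 fold change was -2.12 ± 0.614 (edgeR adjusted p = 0.0476). That call held in 3 of the 12 fits leaving out a library, those without Gadd45a-KO replicate 1, Ing1-KO replicate 1 or Ing1-KO replicate 3, and in the other fits the adjusted p ranged up to 0.149 by edgeR. It was lost without a filter on low counts (edgeR adjusted p = 0.0992). Against Ing1-KO the difference of -2.06 ± 0.614 fell just short (edgeR adjusted p = 0.0535), and it passed by DESeq2 (adjusted p = 0.00354) and by edgeR without Ing1-KO replicate 3 (adjusted p = 0.00967). Against the Gadd45a-KO-labelled libraries the difference was -1.58 (edgeR adjusted p = 0.195), and edgeR on only those 6 libraries gave an adjusted p of 0.0496.

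Ppard (ENSMUSG00000002250), the PPAR of most tissues, was close to level. Its libraries lay between 37.7 and 47.5 CPM, with means of 44.6 ± 2.62 CPM in WT, 42.5 ± 3.11 CPM in the Gadd45a-KO-labelled libraries, 43.1 ± 2.87 CPM in Ing1-KO, and with DKO as the label 39.5 ± 2.72 CPM (SD, n = 3). The groups were ordered like those of Pparg at the ends, WT highest and DKO lowest, but no comparison passed, and the largest difference was -0.17 ± 0.0724 between the DKO-labelled libraries and WT (edgeR adjusted p = 0.139). Rxra (ENSMUSG00000015846), which encodes an RXR partner of the PPARs, varied least of the 8 genes. Its lowest library, Ing1-KO replicate 2, held 96.3 CPM and its highest, WT replicate 1, held 109 CPM, a ratio of 1.13. Group means were 104 ± 4.69 CPM in WT, 103 ± 3.46 CPM in the Gadd45a-KO-labelled libraries, 99.7 ± 3.21 CPM in Ing1-KO, and with DKO as the label 99.5 ± 1.40 CPM. The difference between the DKO-labelled libraries and WT was -0.06 ± 0.0415 on the log2 scale (edgeR adjusted p = 0.374). The sign of the smallest Rxra differences, those near 0, turned under other scalings.

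**Figure D1:**
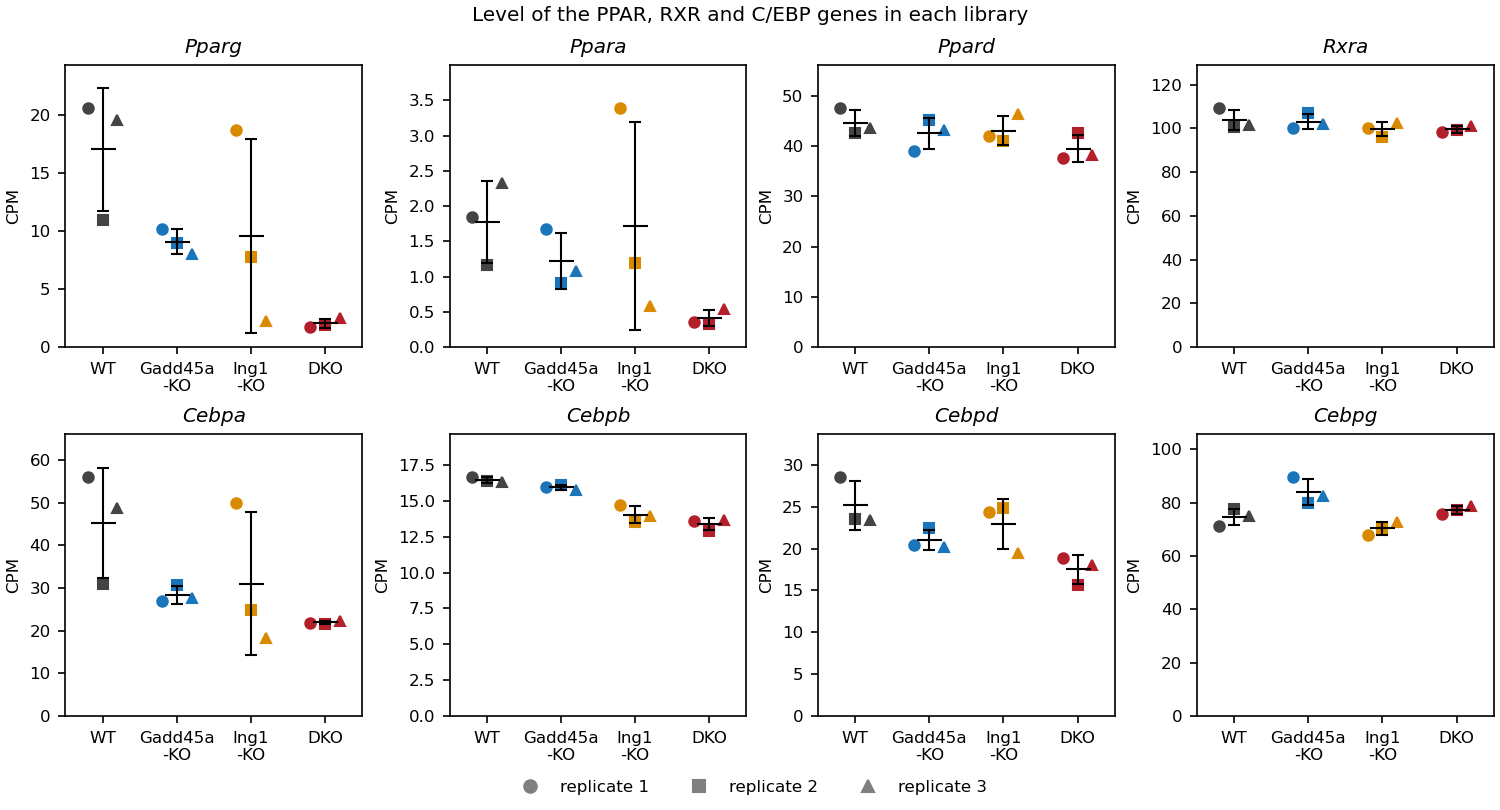
Level of each of the 8 genes in CPM (y axis, from 0, a separate scale per gene) in the 12 libraries grouped by labelled genotype (x axis); symbols are replicates 1 to 3, and bars are the mean and the SD of 3 libraries. Pparg and Ppara sit lowest in the DKO-labelled libraries and spread widely in Ing1-KO, Rxra stays between 96.3 and 109 CPM, and Cebpb separates into the genotypes with Ing1 (15.8 to 16.7 CPM) and without it (12.9 to 14.7 CPM).

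Cebpa (ENSMUSG00000034957), which maintains the fat-cell state together with PPARG, was lower in the DKO-labelled libraries but did not pass the test. WT libraries held 56.0, 30.9 and 48.6 CPM, the Gadd45a-KO-labelled libraries 26.9, 30.7 and 27.6 CPM, Ing1-KO 50.0, 24.8 and 18.3 CPM, and the DKO-labelled ones 21.9, 21.6 and 22.3 CPM. The DKO libraries were the tightest group, at 21.9 ± 0.373 CPM against 45.2 ± 12.9 CPM in WT (SD, n = 3). They did not overlap with WT or with the Gadd45a-KO-labelled libraries, yet Ing1-KO replicate 3 lay below all of them. The log2 fold change from WT was -1.04 ± 0.328 (edgeR adjusted p = 0.0641). The same comparison passed with DESeq2 (adjusted p = 0.0275), with edgeR on only those 6 libraries (adjusted p = 0.0333), and in edgeR fits without WT replicate 2, Ing1-KO replicate 1 or Ing1-KO replicate 3 (adjusted p = 0.0454, 0.0103 and 0.0323). Fold changes of -0.67 ± 0.324 for the Gadd45a-KO-labelled libraries and -0.54 for Ing1-KO against WT did not pass (edgeR adjusted p = 0.897 and 0.385). Without Ing1-KO replicate 1 the latter became -1.07 (edgeR adjusted p = 0.0332). The DKO-labelled libraries against the Gadd45a-KO-labelled ones, at -0.37, did not pass (edgeR adjusted p = 0.592), whereas the fit with only those 6 libraries passed (edgeR adjusted p = 0.0257).

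Cebpb (ENSMUSG00000056501), the early factor of the cascade, followed the Ing1 genotype. Its level was 16.7, 16.4 and 16.3 CPM in WT and 16.0, 16.1 and 15.8 CPM in the Gadd45a-KO-labelled libraries. In Ing1-KO it was 14.7, 13.5 and 14.0 CPM, and in the DKO-labelled libraries 13.6, 12.9 and 13.7 CPM. Every one of the 6 libraries without Ing1 was therefore below every one of the 6 libraries with it. How many of all tested genes divide in this way was not counted. Replicates of a genotype differed by little, with SDs from 0.177 to 0.603 CPM. The differences were small and passed in 3 comparisons. Cebpb fell by 0.23 on the log2 scale in Ing1-KO against WT (SE 0.0481, edgeR adjusted p = 0.0285) and by 0.30 in the DKO-labelled libraries against WT (SE 0.0483, edgeR adjusted p = 0.00687). In the DKO-labelled libraries against the Gadd45a-KO-labelled ones, a pair of groups that shares no library with Ing1-KO and WT, it fell by 0.25 (SE 0.0483, edgeR adjusted p = 0.0365).

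Where only the Gadd45a label differed, the Cebpb differences were nearer 0: -0.04 ± 0.0479 for the Gadd45a-KO-labelled libraries against WT (edgeR adjusted p = 0.957) and -0.07 ± 0.0484 for the DKO-labelled ones against Ing1-KO (edgeR adjusted p = 0.348). Ing1-KO against the Gadd45a-KO-labelled libraries, at -0.18 ± 0.0481, did not pass (edgeR adjusted p = 0.0687). In Ing1-KO replicate 1, the 18.7 CPM of Pparg lay among the WT libraries, and the 14.7 CPM of Cebpb below all of them. This is 1 library, and a difference between the genes was not tested. The fall from WT to the DKO-labelled libraries was called in each of the 12 fits with 1 library left out and under all 7 other settings. The fall in Ing1-KO was lost without WT replicate 1, 2 or 3 or Ing1-KO replicate 2 (edgeR adjusted p = 0.0888, 0.0913, 0.0848 and 0.139), without a filter on low counts (0.0604) and with only the 6 libraries compared (0.0761). The remaining fall, against the Gadd45a-KO-labelled libraries, passed in 4 of 12 such fits, those without Gadd45a-KO replicate 1, Ing1-KO replicate 1, Ing1-KO replicate 3 or DKO replicate 3 (edgeR adjusted p up to 0.146 in the others), and not with the replicate number as a block, without a filter on low counts or with only the 6 libraries (edgeR adjusted p = 0.0621, 0.0544 and 0.0654).

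Cebpd (ENSMUSG00000071637), the other early factor, fell in the DKO-labelled libraries. Its values were 28.5, 23.5 and 23.4 CPM in WT, 20.5, 22.4 and 20.2 CPM in the Gadd45a-KO-labelled libraries, 24.3, 24.9 and 19.4 CPM in Ing1-KO, and 18.9, 15.6 and 18.1 CPM in the DKO-labelled ones. Every library labelled DKO was below all 9 others, though narrowly, with 18.9 CPM in DKO replicate 1 against 19.4 CPM in Ing1-KO replicate 3. How many of all tested genes lie below all 9 in this way was not counted. The log2 fold change was -0.52 ± 0.112 against WT (edgeR adjusted p = 0.0164) and -0.39 ± 0.112 against Ing1-KO (edgeR adjusted p = 0.0477). The first call was lost without WT replicate 1, DKO replicate 1 or DKO replicate 2 (edgeR adjusted p = 0.0747, 0.0518 and 0.0575). The second held in 3 of 12 fits, those without WT replicate 1, Gadd45a-KO replicate 1 or Ing1-KO replicate 3, and not with the replicate number as a block, without a filter on low counts or with only the 6 libraries (edgeR adjusted p = 0.0531, 0.0639 and 0.0861). Unlike Cebpb, Cebpd was not called in Ing1-KO against WT, at -0.14 (edgeR adjusted p = 0.536), but a difference between the 2 genes was not tested.

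Cebpg (ENSMUSG00000056216), the dimer partner, was highest in the Gadd45a-KO-labelled libraries and was not called between the DKO-labelled libraries and WT. It was at 71.4, 77.5 and 74.9 CPM in WT and at 89.6, 79.9 and 82.5 CPM in the Gadd45a-KO-labelled libraries. It was at 67.9, 70.2 and 72.9 CPM in Ing1-KO and at 75.9, 77.4 and 78.9 CPM in the DKO-labelled libraries. The Gadd45a-KO-labelled libraries were above all 9 others, and the DKO-labelled ones lay above Ing1-KO without overlap. The shares of all tested genes with such gaps are not given here. Only Ing1-KO against the Gadd45a-KO-labelled libraries passed, at -0.26 ± 0.0486 (edgeR adjusted p = 0.0275), and that call was lost without WT replicate 3, Gadd45a-KO replicate 3, Ing1-KO replicate 1 or Ing1-KO replicate 2 (edgeR adjusted p = 0.0503, 0.102, 0.0726 and 0.121) and with only the 6 libraries compared (0.169). The DKO-labelled libraries against Ing1-KO passed in the fit without Gadd45a-KO replicate 1, as a rise of 0.14 (edgeR adjusted p = 0.0391). The rise of 0.17 ± 0.0485 from WT to the Gadd45a-KO-labelled libraries had an edgeR p of 0.00452 before and 0.897 after adjustment.

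Counted together, 4 of the 8 genes fell between WT and the DKO-labelled libraries, Pparg, Ppara, Cebpb and Cebpd, and none rose. Of all tested genes 7.11% fell and 5.88% rose in that comparison. The median log2 fold change of the 8 genes was -0.41 beside -0.003 for all tested genes. The count was 1 without WT replicate 1, DKO replicate 1 or DKO replicate 2, Cebpb alone, and 5 by DESeq2, with Cebpa added. In 5 of the 8 genes the DKO-labelled libraries lay wholly below WT, which holds for 19.7% of all tested genes. Against the Gadd45a-KO-labelled libraries that was so for 6 genes, Cebpg with them, where 13.6% of all genes lie wholly below; 1 of them was called, beside 0.557% of all genes called lower. Between Ing1-KO and the DKO-labelled libraries 2 genes fell, Pparg and Cebpd, against a background of 6.02% called lower.

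Between WT and the libraries labelled with 1 deleted gene, few of the 8 genes were called. In Ing1-KO against WT 1 gene fell, Cebpb, where 1.84% of all genes did, and the median of the 8 was -0.11 beside 0.003 for all genes. In the Gadd45a-KO-labelled libraries against WT edgeR called 0 of the 8, and 0.0124% of all genes in either direction. Before adjustment 2 of the 8, Cebpd and Cebpg, had p under 0.05, as did 854 of all 16163 genes, and DESeq2 called 0 of the 8 and 7 of all genes. Yet 4 of the 8 lay wholly below WT (Pparg, Cebpa, Cebpb and Cebpd) and 1, Cebpg, wholly above it, beside 7.61% and 4.6% of all genes, with a median of -0.16. For Pparg and Cebpa these gaps were narrow, 10.2 against 11.0 CPM and 30.7 against 30.9 CPM at the nearest libraries. In Ing1-KO against the Gadd45a-KO-labelled libraries 1 of 8 fell, Cebpg, where 0.879% of all genes were called lower. The interaction, which asks whether the combined genotype departs from the sum of the single ones, was called for none of the 8 and for 0% of all genes by edgeR. None of the 8 and 2195 of all genes had an unadjusted p under 0.05, and DESeq2 called 0 and 173. Several of these comparisons share libraries and are not independent of each other.

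**Figure D2:**
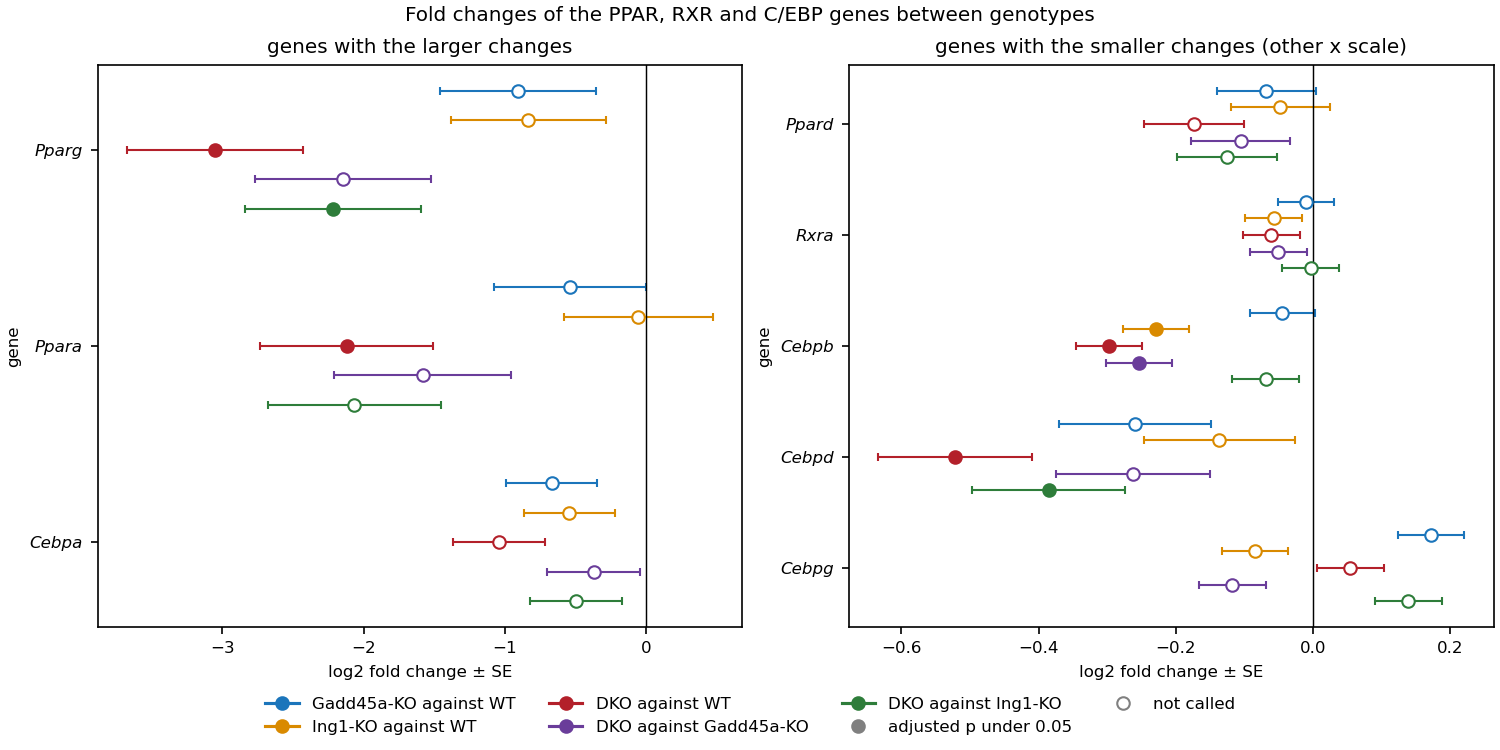
Log2 fold change ± SE (x axis) of each gene (y axis) in 5 comparisons between labelled genotypes, with filled points for an edgeR adjusted p under 0.05; the right panel has a narrower x scale. Pparg reaches -3.05 in the DKO-labelled libraries against WT, and in Cebpb the 3 filled points, -0.23, -0.30 and -0.25, are the comparisons in which Ing1 was lost.

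Levels of different genes were compared per kilobase of exon. In WT the order was Rxra at 19.0 CPM per kb, Cebpa at 17.1, Cebpg at 13.3, Cebpb at 11.0, Cebpd at 6.71, Ppard at 5.93, Pparg at 5.78 and Ppara at 0.465. In the DKO-labelled libraries Rxra was again first, at 18.2 CPM per kb, and Cebpg was second, at 13.8. Cebpb at 8.91 and Cebpa at 8.32 CPM per kb had come close to each other, and Pparg had gone down to 0.695. Pparg and Ppard were thus at like levels in WT, while in the DKO-labelled libraries Ppard, at 5.26 CPM per kb, was far above Pparg. As a share of the 3 PPAR genes on this scale, Pparg made up 46.6 ± 7.18% in WT, 34.0 ± 3.57% in the Gadd45a-KO-labelled libraries, 30.6 ± 19.3% in Ing1-KO and 11.5 ± 2.04% in the DKO-labelled ones (SD, n = 3). The Ing1-KO libraries ranged from 10.8% to 49.4%, from the DKO range to the WT range. Ppard took up the rest, from 49.6% in WT to 86.8% in the DKO-labelled libraries, with Ppara at 4.24% or less as a group mean.

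Within the C/EBP genes the shift was smaller. Cebpa made up 35.2 ± 6.82% of their summed level per kb in WT and 23.3 ± 0.244% in the DKO-labelled libraries, and Cebpg 27.9% and 38.6%. Cebpb, from 22.9% to 25.3% over the group means, and Cebpd, from 13.1% to 15.51%, kept similar shares. Cebpa thus led in WT and Cebpg in the DKO-labelled libraries. These shares describe composition and were not tested.

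**Figure D3:**
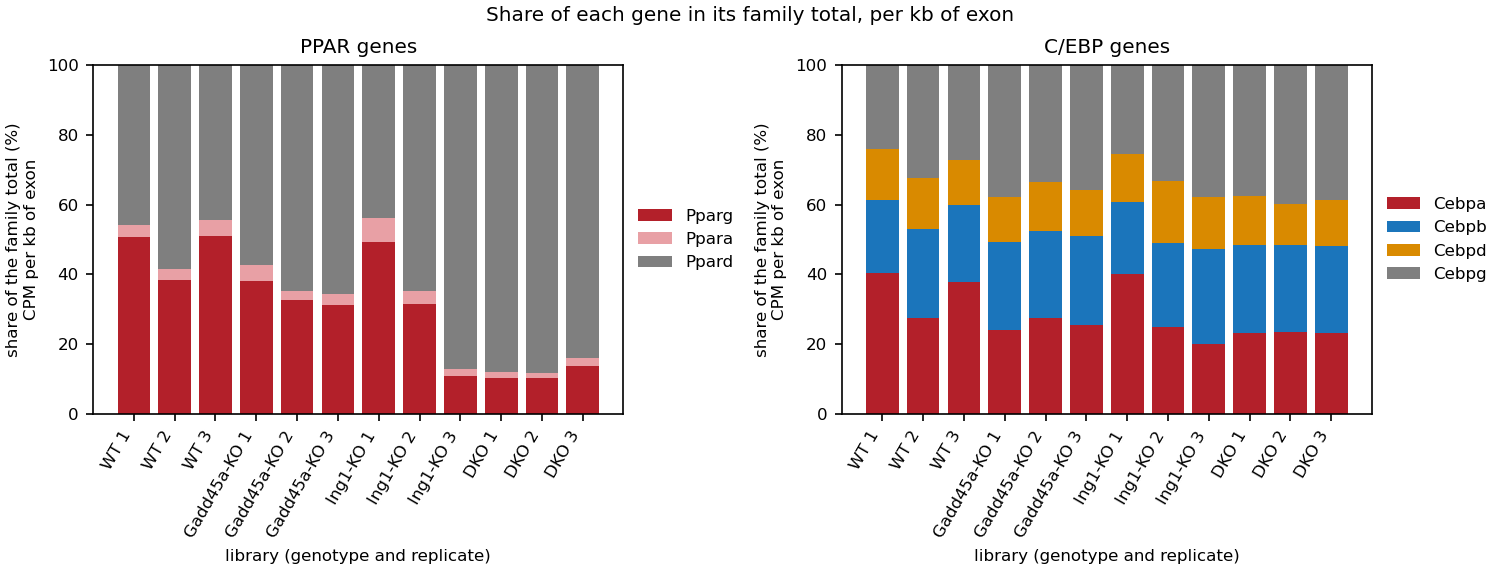
Share (y axis, percent) of each gene in the summed CPM per kb of exon of the 3 PPAR genes (left) and the 4 C/EBP genes (right) in each of the 12 libraries (x axis). Pparg takes 38.3% to 50.9% of the PPAR total in WT and 10.3% to 13.8% in the DKO-labelled libraries, and Ing1-KO replicates 1 and 3 resemble WT and DKO, respectively.

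Within genotypes, Pparg and Cebpa varied with the adipocyte markers of the same library. None of the 8 genes is in that marker list, which shares Fabp4, Plin1, Cidec, Adipoq and others with the PPAR targets. The mean log2 CPM of the 16 adipocyte markers was 5.51, 4.28 and 5.44 in WT, 4.15, 4.17 and 3.72 in the Gadd45a-KO-labelled libraries, 5.36, 3.75 and 2.00 in Ing1-KO, and 1.33, 1.11 and 1.47 in the DKO-labelled ones. The lowest WT library in this measure, replicate 2, was also the lowest WT library in Pparg, Ppara and Cebpa. The DKO-labelled libraries lay below all others along this axis. The Gadd45a-KO-labelled libraries, at up to 4.17, lay below every WT library, the lowest of which was at 4.28. Ing1-KO overlapped with both of these genotypes. The relation was therefore read from the deviations of each library from its genotype mean. Of the 8 relations 2 passed after adjustment, Pparg at r = 0.984 and Cebpa at r = 0.949 (exact permutation within genotypes, two-sided, n = 12, adjusted p = 0.0309 for each). Ppara at r = 0.922 did not pass (exact permutation, adjusted p = 0.0638), nor did Cebpd at 0.658, Cebpb at 0.516, Ppard at -0.287, Rxra at 0.0149 and Cebpg at -0.521 (adjusted p from 0.139 to 0.968). Leaving out 1 library at a time kept r between 0.960 and 0.992 for Pparg and between 0.865 and 0.971 for Cebpa, while the adjusted p passed in 5 and 4 of 12 cases. It lay between 0.0926 and 0.190 without any 1 of the WT or Ing1-KO libraries, at 0.0556 without DKO replicate 3 for either gene, and at 0.0556 for Cebpa without DKO replicate 2 (exact permutation, n = 11). Whether the genes set the marker level or followed from it was not tested.

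**Figure D4:**
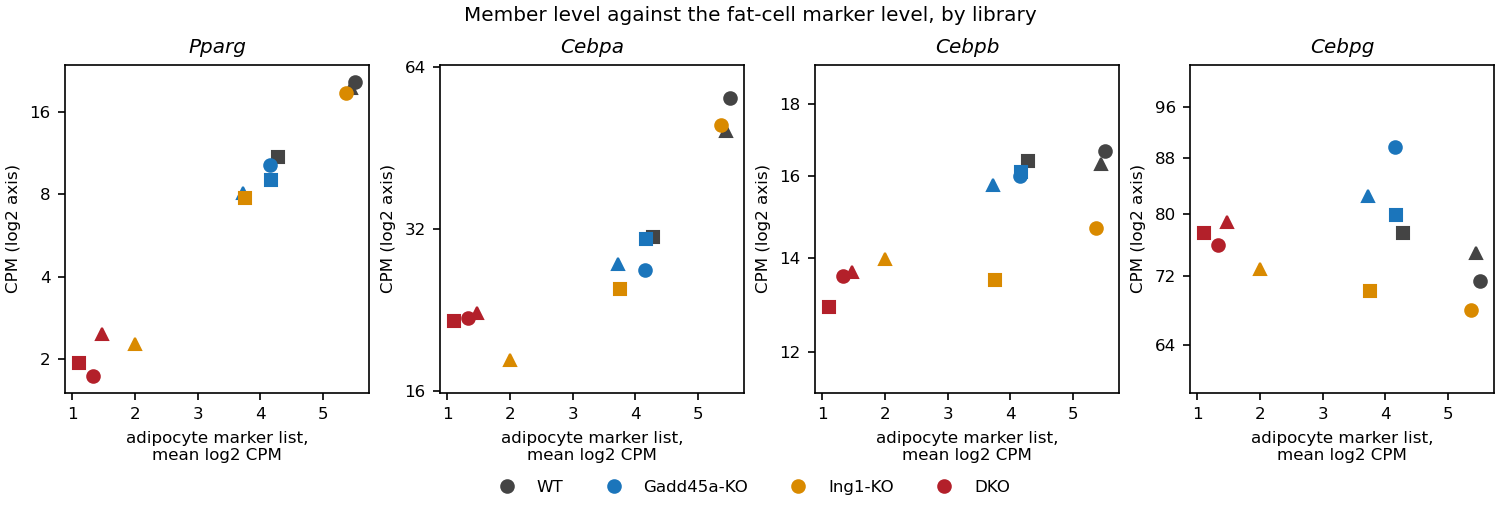
Level of Pparg, Cebpa, Cebpb and Cebpg in CPM (y axis, log2 scale, a different range per gene) against the mean log2 CPM of 16 adipocyte markers (x axis); each point is a library, coloured by labelled genotype. Over the 12 libraries Pparg, Cebpa and Cebpb climb with the marker level (r = 0.994, 0.885 and 0.805). The 3 Ing1-KO points of Cebpb lie between 13.5 and 14.7 CPM over marker levels from 2.00 to 5.36.

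The genes whose log2 CPM ran most like each of the 8 over the 12 libraries were ranked among 10495 genes with a mean of at least 5 CPM, as a description. The libraries of a genotype and their depth are shared by all the genes compared, and the adipocyte markers also differ between these libraries, as given above. For Pparg they were Ephx2 (a soluble epoxide hydrolase, r = 0.997), the fatty acid carrier Fabp4 (0.996), the amino acid transporter Slc36a2 (0.995), the lipase Lipe (0.995) and the acyl-CoA synthetase Acsl1 (0.995). For Cebpa they were the lipid droplet coat gene Plin2 (0.989), Tmem135 (0.988), the carnitine acetyltransferase Crat (0.985), Klhl5 (0.985) and the sterol carrier Scp2 (0.983). Ppara ran most like Prelp (0.980), Plpp3 (0.973) and Aldh1a7 (0.969), and Cebpd like Naprt (0.944), Erg28 (0.936) and Plcb1 (0.928). The nearest to Ppard were Ptpn23 (0.923), Syvn1 (0.912) and Bmp1 (0.909), and to Rxra Cic (0.877), Rtel1 (0.873) and Srrm2 (0.851). Cebpg was nearest to Zmynd11 (0.946), Taf1d (0.934) and Lsm14a (0.932).

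The nearest genes of Cebpb showed its division by Ing1 with larger differences. They were Pcyt1b, an enzyme of phosphatidylcholine synthesis (r = 0.965), the cannabinoid receptor Cnr1 (0.955) and the prostaglandin E receptor Ptger3 (0.953). Over deviations from the genotype means these fell to 0.669, 0.478 and 0.635, while the 5 genes nearest to Pparg kept 0.984 to 0.991. Pcyt1b was at 19.9 ± 0.887 CPM in WT and 18.4 ± 0.578 CPM in the Gadd45a-KO-labelled libraries, while Ing1-KO held 14.0 ± 0.821 CPM and the DKO-labelled ones 13.9 ± 0.453 CPM. It fell in Ing1-KO against WT by 0.50 on the log2 scale (edgeR adjusted p = 0.00233), Cnr1 by 0.98 (edgeR adjusted p = 0.0132) and Ptger3 by 1.17 (edgeR adjusted p = 0.0174). These genes were taken for their likeness to Cebpb, so their falls are no separate evidence of its pattern.

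Genes that PPARs are known to bind fell widely in the DKO-labelled libraries. Of 30 listed targets 22 fell and 1 rose against WT, with a median log2 fold change of -2.28 beside -0.003 for all genes. Of all tested genes, 7.11% fell and 5.88% rose there. Those with the smallest adjusted p were genes of the lipid droplet and of triglyceride synthesis. Cidec, which makes lipid droplets merge, was at 268 ± 120 CPM in WT and 6.43 ± 1.11 CPM in the DKO-labelled libraries, and the droplet coat gene Plin4 from 112 ± 43.8 to 4.38 ± 0.574 CPM (edgeR adjusted p = 0.00953 and 0.0104). Gpd1, which makes glycerol phosphate, went from 315 ± 140 to 7.01 ± 2.86 CPM and the coat gene Plin1 from 63.6 ± 24.4 to 2.00 ± 0.552 CPM (edgeR adjusted p = 0.0104 and 0.0108). Against Ing1-KO 11 of the 30 fell and none rose, with a median of -1.50, where 6.02% of all genes fell. Against the Gadd45a-KO-labelled libraries the median was -1.45 and edgeR called 0, while 22 had an unadjusted p under 0.05, as did 3219 of all 16163 genes. DESeq2 called 14 of the 30 lower and 1 higher in that comparison, and 539 of all genes lower and 714 higher. Against WT, nearly all were on the low side without passing in the libraries labelled with 1 deleted gene: 27 of 30 were negative in the Gadd45a-KO-labelled libraries, with a median of -0.82 and 0 called by edgeR or DESeq2 (4 at an unadjusted p under 0.05). In Ing1-KO 28 of 30 were negative, with a median of -0.65, and 1 was called, as a rise, beside 374 rises among all 16163 genes.

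The C/EBP target list shares Fabp4, Slc2a4 and Pck1 with the PPAR list. By edgeR, 8 of its 18 members were down and none up in the DKO-labelled libraries against WT, with a median of -0.66. Of all genes, 7.11% were called lower and 5.88% higher there. Scd1, a fatty acid desaturase, went from 2694 ± 824 to 163 ± 32.0 CPM, and Pck1, an enzyme of glyceride and glucose synthesis, from 42.8 ± 19.6 to 1.32 ± 0.61 CPM (edgeR adjusted p = 0.0096 and 0.0112). Orm1, an acute phase protein, was at 3.03 ± 1.44 CPM in WT and 0.0142 ± 0.0124 CPM in the DKO-labelled libraries (edgeR adjusted p = 0.00827). Lep, which encodes leptin, was at 2.00 ± 1.10 and 0.0216 ± 0.0207 CPM (edgeR adjusted p = 0.00877). Both were at the floor in the DKO-labelled libraries, from 0 to 0.0221 CPM for Orm1 and from 0 to 0.0413 CPM for Lep. Against Ing1-KO 6 of the 18 fell and 1 rose, where 973 of all 16163 genes fell and 959 rose. Against the Gadd45a-KO-labelled libraries the median was -0.13 and edgeR called 0, where 0.557% of all genes were called lower. DESeq2 called 7 lower and 0 higher there, and 539 and 714 of all genes. The Gadd45a-KO-labelled libraries against WT had a median of -0.64, with 14 of 18 negative, and Ing1-KO one of -0.19, with 12 negative. In these edgeR called 0 of the 18, beside 2 and 671 of all genes.

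Among other nuclear receptors that pair with RXR, 3 of 12 tested fell and none rose in the DKO-labelled libraries against WT. The median was -0.07, and over all genes 7.11% fell and 5.88% rose. The receptors that fell were the vitamin D receptor Vdr, Nr4a2 and the oxysterol receptor Nr1h3, which is itself a PPAR target. Nr1h3 went from 12.0 ± 3.10 to 5.54 ± 0.535 CPM and Nr4a2 from 12.5 ± 0.614 to 9.79 ± 0.506 CPM (edgeR adjusted p = 0.0349 and 0.0106). Of 10 tested basic leucine zipper relatives of the C/EBPs 1 rose and 1 fell, beside the same shares of all genes. The stress-induced Atf3 went from 8.48 ± 0.945 to 14.0 ± 0.348 CPM and the clock-linked Hlf from 1.27 ± 0.176 to 0.583 ± 0.21 CPM (edgeR adjusted p = 0.0170 and 0.0250). Coregulators of PPARs and C/EBPs were near level: 1 of 20 rose, Cited2, by 0.22 on the log2 scale (edgeR adjusted p = 0.0174), and none fell by edgeR, while DESeq2 called 2 up and 1 down.

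Of 20 signals that act before the C/EBP and PPAR genes 6 fell and none rose by edgeR in the DKO-labelled libraries against WT. The median was -0.18, and 7.11% of all genes fell and 5.88% rose. Fosl2, an AP-1 factor, went from 299.8 ± 8.37 to 255 ± 10.2 CPM (edgeR adjusted p = 0.0108), and Srebf1, the regulator of lipid synthesis, from 118 ± 17.8 to 78.0 ± 2.77 CPM (edgeR adjusted p = 0.0210). Ebf1, an early B-cell factor that also acts in adipogenesis, went from 88.8 ± 2.87 to 68.6 ± 6.79 CPM (edgeR adjusted p = 0.0240), and Stat3 from 291 ± 3.51 to 265 ± 8.68 CPM (edgeR adjusted p = 0.0244).

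Markers of other cell types moved with the same comparison, in which 5.88% of all genes rose and 7.11% fell. All 18 macrophage and leukocyte markers were on the high side in the DKO-labelled libraries against WT, with a median log2 fold change of 0.86, and 7 rose. Their summed level was 4167 to 4817 CPM in WT, 2185 to 6448 CPM in the Gadd45a-KO-labelled libraries, 4169 to 5000 CPM in Ing1-KO and 7655 to 8198 CPM in the DKO-labelled ones. Aif1, a macrophage marker, went from 5.11 ± 0.418 to 15.9 ± 0.976 CPM (edgeR adjusted p = 0.0161). Of 7 tested muscle markers 3 rose, with a median of 0.47, and the sums ran from 4838 to 6105 CPM in WT and from 5977 to 9163 CPM in the DKO-labelled libraries. Of 14 fibroblast markers 3 fell. Endothelial and epithelial markers summed to less than 10 CPM in every library, with Cldn5, Tie1, Epcam, Krt14 and Krt5 under 0.1 CPM. The part of these cells in the levels of the PPAR and C/EBP genes was not tested.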

How the data were processed

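Poly(A) RNA of 12 mouse fibroblast cultures was sequenced on day 6 of adipogenesis, with groups taken from the labelled genotype. Deposited were the authors' raw counts for each Ensembl gene, 1 file per library. Tools in the submitters' processing notes are TopHat2 2.0.9 with Bowtie2 2.1.0, HTSeq 0.5.4, FastQC and DESeq, on mm9 (NCBIM37). How strand and overlaps were counted is not given in the sources used here, so reads of overlapping or antisense genes cannot be separated. The 5 lines that name no gene took 24.2% to 24.9% of each library and were left out. Symbols and exon lengths came from a later GENCODE mouse annotation (GRCm38), which matched 32919 of the 37991 identifiers. Promoter windows are RefSeq's, in GRCm38.p6, and were matched to the counts by symbol only.

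Computed here were CPM on effective library sizes and quasi-likelihood tests by edgeR 4.0.16 (R 4.3.3) after filterByExpr and TMM scaling, with 1 mean per genotype and the 12 libraries fitted together. Benjamini-Hochberg adjustment covered all 16163 tested genes. Each SE was taken as the size of the log2 fold change over the root of its F. Alternatives were DESeq2 1.42.0, RLE and upper-quartile scaling, other filters (none, or a mean of 5 CPM), a replicate block, only the 6 libraries compared, and leaving out each library. The relation to fat-cell markers was tested by permutation, and leaving out libraries within genotypes was added after the data had been seen. Steps were tested on simulated counts. The 8 genes and all gene lists were chosen with earlier results of these data known. Named beside them were, per list, up to 4 called genes with the smallest adjusted p in the DKO-labelled libraries against WT, and per gene the 3 or 5 others with the most similar pattern. All replicate pairs differed by more than sampling noise.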

Additional observations from a re-analysis of the deposited data

How the results depend on the processing

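Directions of the 8 genes rarely depended on the settings tried, whereas calls often did. Counts of the 8 genes called moved as follows. For Ing1-KO against WT the 1 called became 0 without a filter on low counts and 0 with only the 6 libraries compared. For the DKO-labelled libraries against the Gadd45a-KO-labelled ones, 1 became 0 without the filter, 2 by DESeq2, 0 with the replicate block and 3 with only the 6 libraries. For the DKO-labelled libraries against Ing1-KO, 2 became 0 without the filter, 0 with the replicate block and 0 with only the 6 libraries, and for Ing1-KO against the Gadd45a-KO-labelled libraries 1 became 0 with only the 6 libraries. Leaving out a library gave 0 to 2, 0 to 2, 0 to 3 and 0 to 1 in these comparisons, 1 to 5 for the DKO-labelled libraries against WT, and 0 by edgeR for the Gadd45a-KO-labelled ones against WT and for the interaction. Ppara has no value under a mean of at least 5 CPM.

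Counts over all genes were 1 (mean of at least 5 CPM), 7 (DESeq2) and 2 to 35 (leaving out a library) instead of 2 for the Gadd45a-KO-labelled libraries against WT. For Ing1-KO against WT, 671 became 1256 by DESeq2, 398 with only the 6 libraries, and 96 to 1155 leaving out a library. For the DKO-labelled libraries against WT, 2099 became 3160 with only the 6 libraries and 299 to 2762 leaving out a library. Against the Gadd45a-KO-labelled libraries, 192 became 1253 (DESeq2), 92 (replicate block), 431 (only the 6 libraries) and 6 to 600, and against Ing1-KO 1932 became 1183 (no filter), 2924 (DESeq2), 1220 (only the 6 libraries) and 6 to 3179. For Ing1-KO against the Gadd45a-KO-labelled libraries 384 became 1066 (DESeq2), 35 (only the 6 libraries) and 35 to 1246. The interaction went from 0 to 2 (no filter), 173 (DESeq2) and 0 to 191. Upper-quartile factors moved the share of higher calls from 53.1% to 41.4% for the DKO-labelled libraries against the Gadd45a-KO-labelled ones and from 49.6% to 38% against Ing1-KO, and with only the 6 libraries these shares were 20.4% and 68.6%. Leaving out a library put the first between 16.7%, of only 6 calls without DKO replicate 1, and 69.2%. The cause was not tested.

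Reversed signs belonged to differences that were not called. Rxra turned to 0.00169 with RLE factors and 0.00167 with DESeq2 for the DKO-labelled libraries against Ing1-KO, to 0.00164 with upper-quartile factors for the Gadd45a-KO-labelled ones against WT, and in the interaction to -0.0276, -0.00245 and -0.00988 with upper-quartile factors, no filter and a mean of at least 5 CPM. Leaving out a library gave Rxra -0.0382 to 0.0279 in the Gadd45a-KO-labelled libraries against WT, -0.0281 to 0.0183 in the DKO-labelled ones against Ing1-KO and -0.0309 to 0.0354 in the interaction. In Ing1-KO against WT it gave Ppara -1.02 to 0.36 and Ppard -0.10 to 0.000396. In Ing1-KO against the Gadd45a-KO-labelled libraries it gave Pparg -0.86 to 0.54, Ppara -0.48 to 0.90, Ppard -0.0389 to 0.0662 and Cebpa -0.40 to 0.40. Cebpa ran from -0.77 to 0.0287 in the DKO-labelled libraries against Ing1-KO, and in the interaction Cebpa from -0.098 to 0.70, Cebpb from -0.0530 to 0.00867 and Cebpg from -0.0674 to 0.0156.

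The replicate numbers did not pair the libraries: of 18 same-numbered pairs 2 correlated over 0.1 (median -0.007), and 5 of 12 libraries correlated best with their own number. With the replicate block Pparg in Ing1-KO against the Gadd45a-KO-labelled libraries became -0.0901. The block also ended the calls of Cebpb against the Gadd45a-KO-labelled libraries and of Pparg and Cebpd against Ing1-KO in the DKO-labelled libraries.

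Over all 12 libraries, Ppara, Cebpb and Cebpd also passed against the adipocyte markers (r = 0.949, 0.805 and 0.873, permutation adjusted p = 4e-05, 0.00493 and 0.00016). The DKO-labelled libraries lie below all others in these markers, and within genotypes these genes did not pass (0.922, 0.516 and 0.658). Ppard turned from 0.435 to -0.287. Within genotypes, leaving out a library moved Ppard from -0.443 to 0.186, Rxra from -0.170 to 0.576 and Cebpb from -0.0870 to 0.739. Ppara rests on 15 to 169 reads per library.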

Other observations

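Vdr, the vitamin D receptor and a partner of RXR, was lower wherever Ing1 was lost. Its mean was 76.9 ± 6.24 CPM in WT and 62.1 ± 4.11 CPM in the Gadd45a-KO-labelled libraries. Ing1-KO was at 51.0 ± 2.42 CPM and the DKO-labelled libraries at 49.8 ± 2.72 CPM (SD, n = 3). The highest of the 6 libraries without Ing1, at 53.7 CPM, lay below the lowest of the other 6, at 58.99 CPM. The share of all tested genes with such a division was not counted. Against WT Vdr fell by 0.59 on the log2 scale in Ing1-KO (edgeR adjusted p = 0.00234) and by 0.62 in the DKO-labelled libraries (edgeR adjusted p = 0.00147). The DKO-labelled libraries against the Gadd45a-KO-labelled ones differed by -0.32 ± 0.0685, which did not pass (edgeR adjusted p = 0.0511). Vdr was also lower in the Gadd45a-KO-labelled libraries than in WT, without overlap (58.99 to 66.8 against 73.2 to 84.1 CPM). That difference, -0.31 ± 0.0681, did not pass (edgeR adjusted p = 0.897). S100a4, from the fibroblast list, was also lower in the libraries without Ing1. It was at 306 ± 6.82 CPM in WT and 298 ± 9.96 CPM in the Gadd45a-KO-labelled libraries, and these ranges overlapped. Ing1-KO was at 258 ± 8.53 CPM and the DKO-labelled libraries at 258 ± 16.2 CPM. Vdr and S100a4 were singled out after their values had been seen.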
